A study of Mus musculus with 2 samples.

Results

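Lambda light chains are the minor antibody light chains of the mouse. Here 6 genes of the lambda locus were followed in CD45+ 7-AAD- cells of the colonic lamina propria (LP). They were the constant genes Iglc1, Iglc2 and Iglc3 and the variable genes Iglv1, Iglv2 and Iglv3, 6 of the 32228 genes counted. The members were selected on measured values of these data, after Iglc1 and Iglv1 had been read as higher in 1 of the libraries, so the ratios of the members between the libraries are a description and were not tested. One library came from WT mice and the other from Ring1AKO mice, which lack Ring1A, a subunit of Polycomb repressive complex 1. All mice had DSS colitis, were on the C57BL/6 strain and were 8 to 10 weeks old. Cells of several mice were pooled into 1 library per group and sorted with the same gate. With 1 library a group, genotype, mice, sort and library cannot be told apart, and no test between the libraries was possible. The 10x Genomics 3′ assay reads the 3′ end of a transcript and counts each molecule once, as a unique molecular identifier (UMI).

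An antibody holds a pair of heavy and a pair of light chains. Each light chain is either kappa or lambda, and a B cell normally keeps 1 functional light-chain gene, with kappa rearranged before lambda in most cells. A plasma cell secretes the antibody of the B cell it came from, so cells of 1 clone normally carry the same light-chain variable and constant gene. In the mouse lambda locus a variable segment is joined to a joining segment next to its own constant gene. Iglv1 lies upstream of Iglc3 and Iglc1, and Iglv2 and Iglv3 lie upstream of Iglc2.

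The genes lie on the minus strand of chromosome 16 of GRCm38 in GENCODE vM21. The order from low to high position is Iglc1 (19061618 to 19062071), Iglc3 (19065230 to 19065681), Iglv1 (19085017 to 19085500), Iglc2 (19198396 to 19200351), Iglv3 (19241207 to 19241690) and Iglv2 (19260401 to 19260859). Transcription runs towards Iglc1. Each constant region is coded by 1 exon, and each variable gene has 2 exons. The kappa constant gene Igkc lies on chromosome 6 from 70726435 to 70726966. The first 300 coding bases of each constant gene are shown, as transcribed, since the results turn on which of them was counted. Capitals in Iglc2 and Iglc3 mark bases that differ between these genes, and capitals in Iglc1 mark bases that differ from Iglc2.

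Iglc2: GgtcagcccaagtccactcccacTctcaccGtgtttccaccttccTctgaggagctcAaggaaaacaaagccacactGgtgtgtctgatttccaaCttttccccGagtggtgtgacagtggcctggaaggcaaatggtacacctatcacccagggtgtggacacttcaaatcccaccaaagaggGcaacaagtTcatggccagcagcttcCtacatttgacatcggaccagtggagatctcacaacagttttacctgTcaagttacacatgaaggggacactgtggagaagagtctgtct

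Iglc3: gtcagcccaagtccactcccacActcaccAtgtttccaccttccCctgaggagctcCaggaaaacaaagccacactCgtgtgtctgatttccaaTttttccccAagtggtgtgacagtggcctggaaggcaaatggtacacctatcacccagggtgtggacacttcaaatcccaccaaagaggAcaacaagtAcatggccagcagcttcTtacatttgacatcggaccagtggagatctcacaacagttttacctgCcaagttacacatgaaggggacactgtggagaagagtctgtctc

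Iglc1: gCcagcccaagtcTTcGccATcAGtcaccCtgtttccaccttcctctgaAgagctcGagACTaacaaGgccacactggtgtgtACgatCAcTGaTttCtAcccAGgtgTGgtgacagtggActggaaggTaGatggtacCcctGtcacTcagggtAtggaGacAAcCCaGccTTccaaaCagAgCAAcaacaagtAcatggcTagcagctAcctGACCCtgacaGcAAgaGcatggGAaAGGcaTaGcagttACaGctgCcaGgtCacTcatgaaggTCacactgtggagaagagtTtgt

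Aligned, Iglc2 and Iglc3 were identical at 303 of 315 positions (96.2%), while Iglc1 matched Iglc2 at 234 of 319 (73.4%) and Iglc3 at 236 of 318 (74.2%). No stretch of 91 bases in the transcript of 1 constant gene was found unchanged in that of another. Iglv1 and Iglv2 were identical at 340 of 351 coding bases (96.9%). They are shown since counts of Iglv2 were low and lay in few cells, and the last 300 of 351 coding bases are printed. Capitals mark the 8 printed bases that differ, of 11 in the whole coding sequence.

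Iglv1: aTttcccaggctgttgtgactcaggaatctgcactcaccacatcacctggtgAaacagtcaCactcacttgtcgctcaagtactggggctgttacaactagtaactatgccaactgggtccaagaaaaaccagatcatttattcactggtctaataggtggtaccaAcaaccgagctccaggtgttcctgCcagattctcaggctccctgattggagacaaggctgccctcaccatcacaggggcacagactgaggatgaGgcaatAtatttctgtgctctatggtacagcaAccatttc

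Iglv2: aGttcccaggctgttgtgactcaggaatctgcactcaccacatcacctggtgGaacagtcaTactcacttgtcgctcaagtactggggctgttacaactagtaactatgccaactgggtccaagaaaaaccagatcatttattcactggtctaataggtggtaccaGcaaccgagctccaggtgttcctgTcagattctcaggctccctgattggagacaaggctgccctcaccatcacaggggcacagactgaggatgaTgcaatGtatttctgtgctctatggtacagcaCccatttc

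Of 276 stretches of 91 bases in the Iglv2 transcript, 14 were also in Iglv1, and reads from such stretches cannot be given to 1 of the genes. Iglv3 matched Iglv1 at 53.6% of aligned coding positions. A 3′ library reads the constant end of a light-chain transcript far more often than the variable end, so levels were compared between libraries and cells for 1 gene at a time.

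The WT-labelled library held 74414511 UMIs in all and 5975 cells after filtering, and the Ring1AKO-labelled library held 81862096 UMIs and 7268 cells. Median UMIs per cell were 6162 and 4837. The libraries shared 13 cell barcodes. Ring1, the gene named in the label, was counted in both, with 802 and 755 UMIs (13.3 and 11.9 CPM, which stands for UMIs per 1000000 UMIs of the cells summed). Reads from the 3′ end need not cover the deleted part of a gene, so these counts do not check the genotype. Plasma cells were cells with at least 10 UMIs of Mzb1, Derl3, Txndc5 and Xbp1 together, genes of the secretory machinery. B cells had at least 5 UMIs of Cd79a, Cd79b and Ms4a1 together and less than 1% of UMIs from Jchain, the chain that joins IgA and IgM units. There were 775 plasma cells (12.97% of cells) and 1067 B cells labelled WT, and 638 plasma cells (8.78%) and 3102 B cells labelled Ring1AKO. Another 77 and 87 cells met both rules and were kept apart. All 6 genes of a plasma cell check list were above 10 CPM in the plasma cells of both libraries, and 38 and 20 plasma cells had less than 1% of UMIs from heavy-chain constant genes. Intervals are exact 95% intervals and cover counting error only, not the spread between mice or libraries.

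In plasma cells the lambda constant genes went in opposite directions between the libraries. Iglc1 was higher in the Ring1AKO-labelled library, and Iglc2 and Iglc3 were lower there. Iglc1 had 294319 UMIs in plasma cells labelled WT and 819252 in those labelled Ring1AKO, or 12440 and 35107 CPM, with a log2 ratio of 1.50 (1.49 to 1.50). Iglc2 had 7153 and 2664 CPM (log2 ratio -1.42), and Iglc3 7487 and 629 CPM (log2 ratio -3.57). Of the lambda constant UMIs, Iglc1 made up 45.9% in the WT-labelled library and 91.4% in the Ring1AKO-labelled library. The sum of the constant genes, 27081 and 38400 CPM, differed less than any of them, with a log2 ratio of 0.50. Igkc had 289903 and 352236 CPM (log2 ratio 0.28), so kappa made up most light-chain UMIs in both libraries and lambda 8.5% and 9.8%.

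The variable genes did not follow Iglc1. Over the whole library, cell-free barcodes included, Iglc1 had a log2 ratio of 1.36 and Iglv1 of -0.22. Iglv1, which can join to Iglc1 and Iglc3, had 1205 CPM in plasma cells labelled WT and 1076 CPM in Ring1AKO ones, with a log2 ratio of -0.16 (-0.19 to -0.14). Iglv2 had 12.8 and 3.90 CPM (302 and 91 UMIs, log2 ratio -1.70), and Iglv3 had 84.3 and 85.7 CPM (log2 ratio 0.02, -0.07 to 0.11). Only the interval of Iglv3 held 0. All 6 members had at least 100 UMIs over both libraries. One of them, Iglc1, was higher by at least 1 log2 unit, as were 0.72% of the 9443 genes measured so, and 3 of them, Iglc2, Iglc3 and Iglv2, were lower by as much, as were 10.4% of these genes. The median log2 ratio of all these genes was -0.40. The members were chosen with this contrast in view, so nothing follows from these counts.

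Whether more cells made lambda, or lambda cells made more of it, was read from single cells. A cell with at least 10 UMIs of Igkc, Iglc1, Iglc2 and Iglc3 was called lambda where most of them were lambda. All plasma cells could be called. In the WT-labelled library 61 of 775 were lambda, 7.87% (6.07% to 10.0%), and in the Ring1AKO-labelled library 51 of 638, 7.99% (6.01% to 10.4%). The shares differed by 0.12 percentage points (-2.69 to 3.03), so a difference of up to about 3 points in either direction was within counting error. Lambda cells held a median of 6578 lambda constant UMIs (388 to 21492) in the WT-labelled library and 15393 (26 to 59885) in the Ring1AKO-labelled library. That was 25.6% and 39.9% of all their UMIs at the median. In kappa cells the median share of UMIs from Igkc was 31.9% and 39.8%. The median light-chain share of a cell was thus higher in the Ring1AKO-labelled library in lambda cells and in kappa cells. The lambda cells of the libraries also differed in their constant genes, as given below, and the share was not read in Iglc1 cells alone. The median depth of lambda cells was 28560 and 39873 UMIs.

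**Figure D1:**
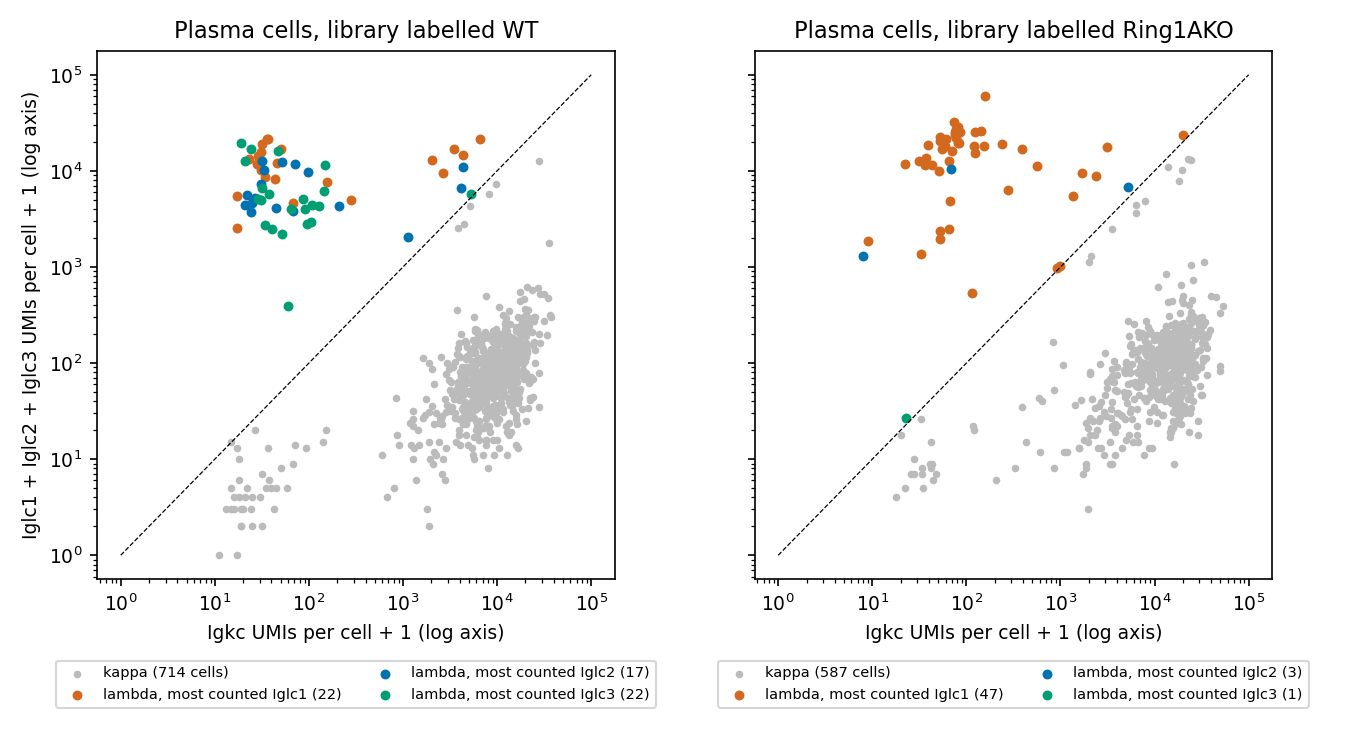
UMIs of Igkc (x axis) and of Iglc1, Iglc2 and Iglc3 together (y axis) in each plasma cell, with 1 added and on log axes, for the WT-labelled library (left) and Ring1AKO (right). Grey points are kappa cells, coloured points lambda cells by their most counted lambda gene, and the dashed line marks equal counts. The lambda cells of WT were of 3 kinds, and 47 of the 51 of Ring1AKO were of the Iglc1 kind.

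Most plasma cells used either kappa or lambda. Lambda cells held a median of 45 and 75 Igkc UMIs, against 8516 and 13199 in kappa cells. Kappa cells held a median of 69 and 89 lambda constant UMIs. A group of deep cells carried both. In the WT-labelled library 16 plasma cells (2.06%, 1.18% to 3.33%), and in the Ring1AKO-labelled library 19 (2.98%, 1.80% to 4.61%), had at least 1000 UMIs of Igkc and at least 1000 of lambda. Iglc1 was the most counted lambda gene in 9 of the 16 and 15 of the 19. Their median depth was 46880 and 45540 UMIs, against 28010 and 35639 in the other plasma cells. No doublet caller was run, and whether these barcodes held 1 cell or more was not tested.

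The constant gene used by the lambda cells differed between the libraries. In plasma cells labelled WT, the most counted lambda gene was Iglc1 in 22 cells (36.1%, 24.2% to 49.4%), Iglc2 in 17 (27.9%) and Iglc3 in 22 (36.1%). In plasma cells labelled Ring1AKO it was Iglc1 in 47 cells (92.2%, 81.1% to 97.8%), Iglc2 in 3 (5.88%) and Iglc3 in 1 (1.96%). The share of Iglc1 was 56.1 percentage points higher (39.6 to 68.0), and the differences for Iglc2 and Iglc3 were -22.0 (-34.9 to -8.04) and -34.1 points (-46.8 to -20.4). As a share of all plasma cells, Iglc1 cells were 2.84% and 7.37%. The intervals treat cells as separate draws, which cells of 1 clone are not.

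**Figure D2:**
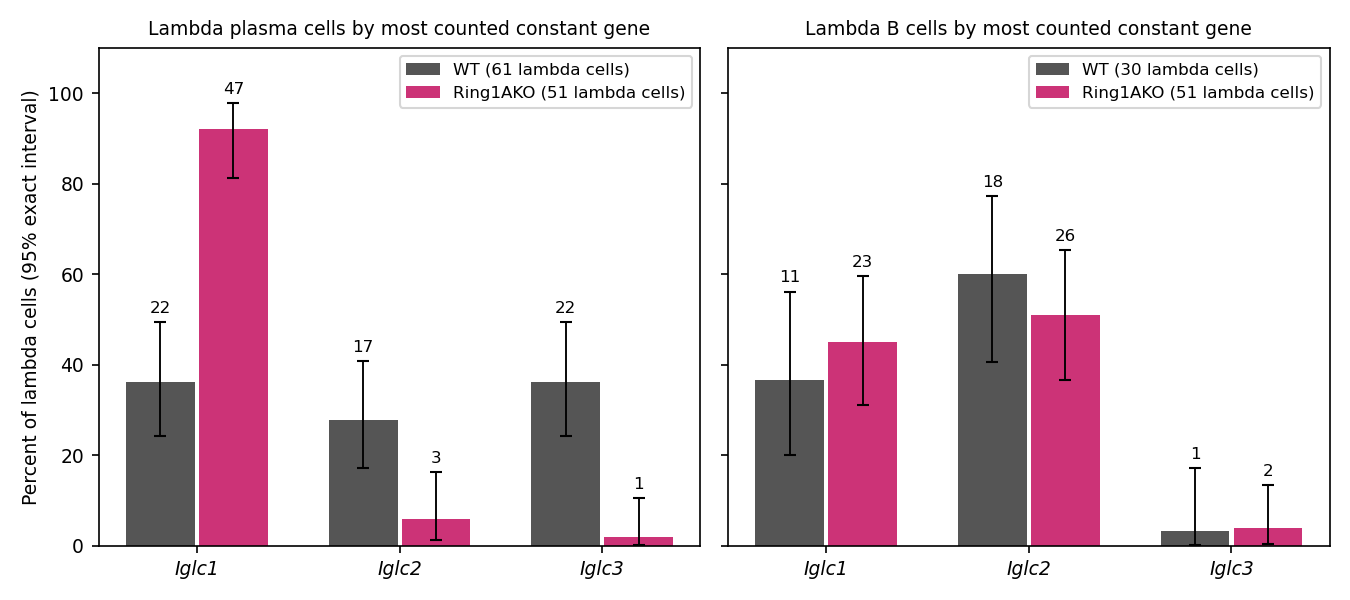
Share of lambda plasma cells and of lambda B cells (y axis, percent) whose most counted lambda constant gene was Iglc1, Iglc2 or Iglc3, for both libraries, with exact 95% Clopper-Pearson intervals as bars. Among plasma cells Iglc1 is at 36.1% in WT and 92.2% in Ring1AKO, while among B cells the intervals overlap for all genes.

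At the median, Iglc1 cells held more Iglc1 in the Ring1AKO-labelled library. The median was 10911 Iglc1 UMIs (2515 to 21380) in the 22 cells labelled WT and 16727 (537 to 59677) in the 47 labelled Ring1AKO, and the ranges overlapped. Iglc2 cells held a median of 5160 and 6736 Iglc2 UMIs, and Iglc3 cells labelled WT a median of 4989 Iglc3 UMIs. The single Iglc3 cell labelled Ring1AKO was unlike them. It held 23 Iglc3, 22 Igkc and 2 Jchain UMIs beside 112 UMIs of a plasmacytoid dendritic marker list, so none of the 51 lambda cells of that library was like the Iglc3 cells labelled WT. Of plasma cells with at least 1000 Igkc and 1000 lambda UMIs, 2 of that library were kappa cells led by Iglc3 among lambda genes. They held 1090 to 1271 Iglc3 beside 2005 to 2093 Igkc UMIs. The WT-labelled library had 1 such kappa cell, with 855 Iglc3 beside 35328 Igkc UMIs.

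Few cells carried most of the counts. In the WT-labelled library 9 plasma cells held 50% of the Iglc1 UMIs, 11 of the Iglc2 and 7 of the Iglc3 UMIs. In the Ring1AKO-labelled library 16 cells held as much of the Iglc1 UMIs. For Igkc it took 192 and 166 cells. The single cell with the most Iglc1 UMIs held 7.26% and 7.28% of all Iglc1 UMIs in plasma cells. Plasma cells with at least 1000 Iglc1 UMIs numbered 33 and 53, while those with as many Iglc2 UMIs were 22 and 4, and with as many Iglc3 UMIs 25 and 4. The pooled levels of the constant genes thus rested on far fewer cells than that of Igkc.

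**Figure D3:**
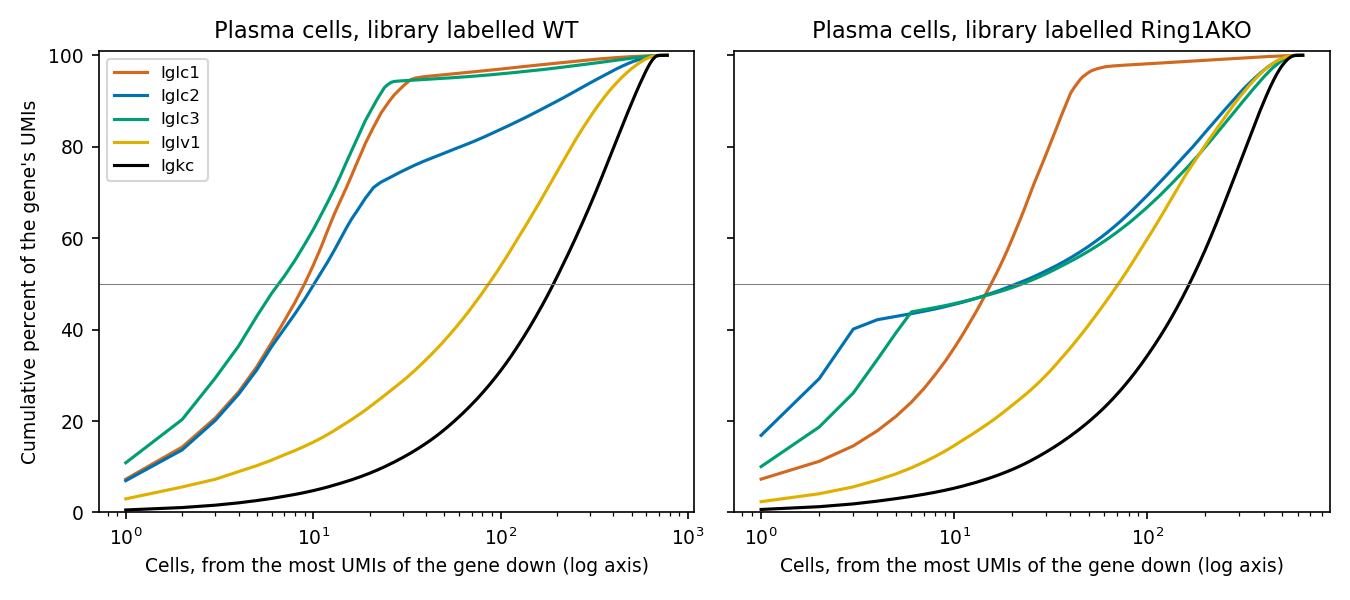
Cumulative percent of a gene's plasma cell UMIs (y axis) held by the cells with the most UMIs (x axis, number of cells on a log axis), for both libraries. The curves of Iglc1, Iglc2 and Iglc3 pass 50% between 7 and 23 cells, those of Iglv1 at 87 and 71 cells and those of Igkc at 192 and 166 cells.

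The most counted lambda variable gene was read in each lambda cell. Among Iglc1 cells Iglv1 was the most counted variable gene in 22 of 22 cells labelled WT and in 44 of the 45 labelled Ring1AKO that had any lambda variable UMI. Among Iglc3 cells labelled WT it was Iglv1 in 21 of 22. Kappa cells gave nearly the same, with Iglv1 leading in 628 of the 649 labelled WT with any lambda variable UMI (96.8%) and in 525 of 547 labelled Ring1AKO (96.0%), so a lead of Iglv1 does not show which variable gene a lambda cell had joined. Iglc2 cells labelled WT were split, with Iglv1 leading in 6, Iglv2 in 5 and Iglv3 in 6 of 17, where kappa cells had Iglv2 leading in 0 and Iglv3 in 21. The variable counts were small beside the constant counts. Iglc1 cells held a median of 68 and 26 Iglv1 UMIs, so Iglv1 was lower per Iglc1 cell in the Ring1AKO-labelled library while Iglc1 was higher. Iglv2 reached 34 UMIs in an Iglc2 cell labelled WT and Iglv3 118.

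Most Iglv1 UMIs were not in lambda cells. Kappa plasma cells held 25229 of the Iglv1 UMIs (88.5%) in the WT-labelled library and 23288 (92.7%) in the Ring1AKO-labelled library. As a level, Iglv1 was 1761 CPM in lambda and 1158 CPM in kappa cells labelled WT, and 917 and 1091 CPM in those labelled Ring1AKO. The median was 52 and 25 Iglv1 UMIs in lambda cells and 14 and 17 in kappa cells. The highest counts were also in kappa cells, with 847 and 592 UMIs, against 272 and 341 in lambda cells. Cell-free RNA at its estimated share would have given kappa cells 6.59 and 7.80 CPM of Iglv1, less than 1% of what was counted.

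The kappa cells rich in Iglv1 held little lambda constant RNA. There were 61 kappa cells labelled WT and 64 labelled Ring1AKO with at least 100 Iglv1 UMIs. In them lambda made up 0.12% to 4.81% and 0.08% to 4.10% of light-chain constant UMIs, and the median count was 110 and 112.5 lambda constant UMIs beside 17530 and 20937 Igkc UMIs. The median lambda constant count of all kappa cells was lower, at 69 and 89 UMIs, and so was their median Igkc count, at 8516 and 13199. The counts thus do not show more lambda constant RNA in the Iglv1-rich cells for their light-chain content. The counts do not show whether these Iglv1 transcripts were rearranged. Iglv3 was like Iglv1, with 79.1% and 91.7% of its UMIs in kappa cells. Iglv2 was mostly in lambda cells in the WT-labelled library (211 of 302 UMIs), and in the Ring1AKO-labelled library it had only 12 UMIs in lambda and 79 in kappa cells.

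**Figure D4:**
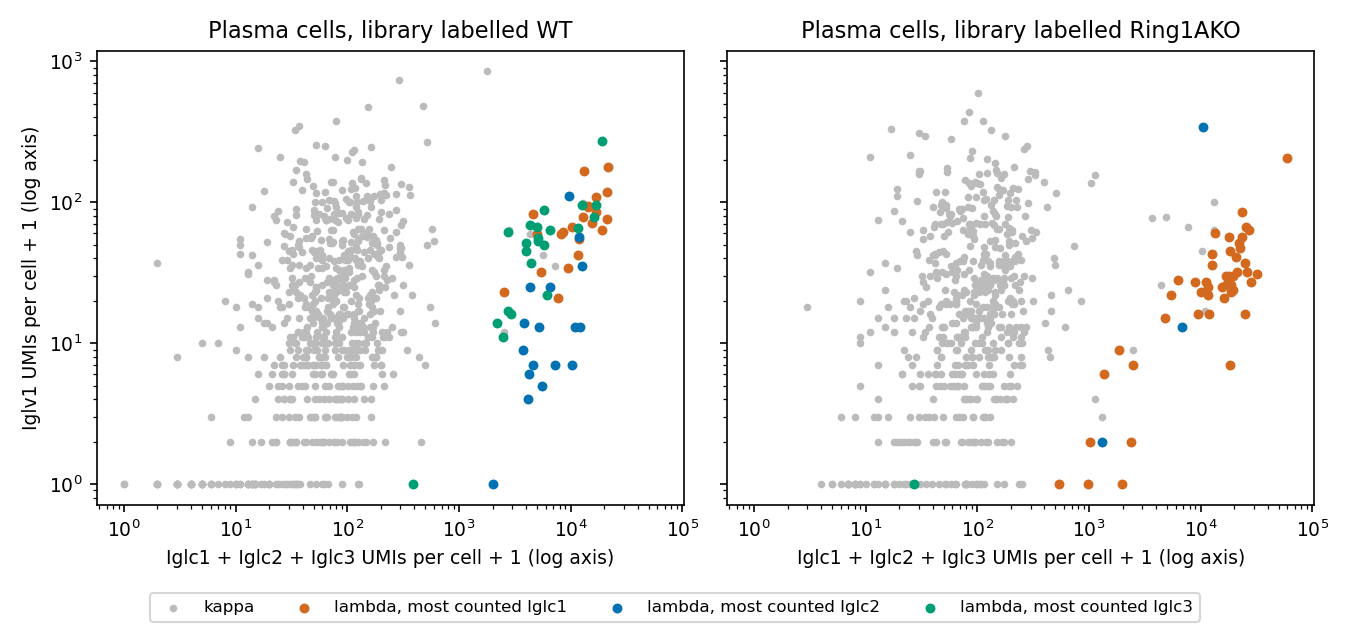
Iglv1 UMIs (y axis) against the sum of Iglc1, Iglc2 and Iglc3 UMIs (x axis) in each plasma cell, with 1 added and on log axes, for the WT-labelled library (left) and Ring1AKO (right). The highest kappa cells (grey) reach 847 and 592 Iglv1 UMIs, and the highest lambda cells (coloured by the most counted lambda gene) 272 and 341.

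Kappa plasma cells carried lambda constant RNA as well. Iglc2 was 2318 CPM in kappa cells labelled WT and 1939 in those labelled Ring1AKO, with medians of 39 and 37 UMIs a cell. The medians of Iglc3 were 11 and 11 UMIs, and those of Iglc1 9.5 and 26. The medians of Iglc2 and Iglc3 were thus close between the libraries in kappa cells, although both genes were lower in the plasma cells as a whole of the Ring1AKO-labelled library. As a median over kappa cells, the level of Iglc1 was 2.95 and 1.59 times that given by the cell-free share, of Iglc2 19.8 and 40.2 times and of Iglc3 12.3 and 37.6 times. The summed levels of Iglc1 were 15.01 and 7.94 times, and up to 11829 and 13148 of the UMIs came from 1 cell. The cell-free share was set in T, NK and ILC-like cells (median depth 5477 and 5417 UMIs) and used unchanged in kappa cells. Kappa cells were deeper (28286.5 and 35593 UMIs), and whether cell-free UMIs rise with depth was not tested. T, NK and ILC-like cells held a median of 1 and 3 Iglc1 UMIs, against 9.5 and 26 in kappa cells.

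The heavy chain partners of the lambda cells that could be read were few, with 11 and 6 heavy variable genes. The heavy variable genes were not among the members, and those named here were chosen after their values were seen. A cell was given a heavy variable gene where at least 5 UMIs came from it, which was so for 57 of the 61 lambda plasma cells labelled WT and 31 of the 51 labelled Ring1AKO. In the Ring1AKO-labelled library, Ighv1-12 was carried by 17 lambda cells, all of them Iglc1 cells, with 11530 to 27624 Iglc1 UMIs each and 43.1% of the lambda UMIs of lambda cells. Ighv1-53 was carried by 7 Iglc1 cells (9425 to 59677 Iglc1 UMIs, 22.7% of lambda UMIs). Among kappa cells, 3 carried Ighv1-12 and 7 Ighv1-53. So 24 of the 31 Ring1AKO lambda cells with a heavy variable gene used 1 of these 2.

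In the WT-labelled library, Ighv7-3 was carried by 18 lambda cells, 7 with Iglc2 and 11 with Iglc3. Ighv10-1 was carried by 12, of which 11 were Iglc1 cells and which held 30.1% of lambda UMIs. Ighv9-4 was carried by 9, all Iglc3 cells with 2171 to 19237 Iglc3 UMIs, and by 0 kappa cells. Ighv2-9-1 was the only gene besides Ighv1-53 found in lambda cells of both libraries, in 4 and 3 cells, all Iglc1 cells and with 0 kappa cells in either. The heavy variable genes thus numbered 11 and 6, with 2 shared, 18.2% of those labelled WT and 33.3% of those labelled Ring1AKO. The overlap among kappa cells was not counted, so whether lambda cells shared fewer genes than other plasma cells is not shown.

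Counting each pair of heavy variable and lambda constant gene once gave 14 pairs labelled WT, of which 5 had Iglc1, 6 Iglc2 and 3 Iglc3, and 6 labelled Ring1AKO, of which 5 had Iglc1 and 1 Iglc2. The Iglc1 share of pairs was 47.6 percentage points higher in the Ring1AKO-labelled library, and its interval of 0.44 to 71.3 came close to 0. Both libraries thus held 5 kinds of Iglc1 pair. Only 30 of the 47 Iglc1 cells labelled Ring1AKO and 20 of the 22 labelled WT had a heavy variable gene, and the others could hold further pairs. Whether cells with the same genes belong to 1 clone was not tested, since the counts hold no junction sequence.

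Some lambda cells labelled WT held 2 constant genes at once. Of the 60 WT lambda cells with at least 1000 lambda UMIs, 13 had less than 90% of them from 1 gene, against 0 of the cells labelled Ring1AKO. Of the 13, 8 carried Ighv1-64 or Ighv2-9, chosen after their values were seen, and 1 of the 12 lambda cells with Ighv10-1 was among the 13. All 3 cells with Ighv1-64 held 7602 to 11563 Iglc1 and 5326 to 8887 Iglc3 UMIs, with Iglc1 at 53.6% to 58.5% of lambda UMIs. All 5 cells with Ighv2-9 held 1915 to 8985 Iglc2 and 1338 to 3243 Iglc1 UMIs, with 28 to 118 Iglv3 UMIs and at most 12 of Iglv1. The 0 labelled Ring1AKO rests on the 90% cut. Both lambda cells with Ighv1-26 of that library held 860 to 1079 Iglc3 beside 18171 to 20351 Iglc1 UMIs. Iglc1 made up 94.1% to 95.7% of their lambda UMIs. The 7 cells with Ighv1-53 held 2 to 13 Iglc3 UMIs.

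Lambda use was then compared by isotype, which was taken as the most counted heavy-chain constant gene, and Igha, the IgA gene, led in 739 of 775 plasma cells labelled WT and 591 of 638 labelled Ring1AKO. Of the Igha cells 59 (7.98%) and 47 (7.95%) were lambda, a difference of -0.03 percentage points (-2.93 to 2.99). Of cells led by another gene 2 of 36 (5.56%) and 4 of 47 (8.51%) were lambda. Among lambda Igha cells, Iglc1, Iglc2 and Iglc3 led in 21, 17 and 21 cells labelled WT and in 45, 1 and 1 labelled Ring1AKO, so the difference in constant gene lay within IgA cells. The 1 Iglc3 cell labelled Ring1AKO was the barcode with 112 plasmacytoid dendritic marker UMIs, and it held 24 Igha UMIs of 13137.

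B cells held far less light-chain RNA, and the Iglc1 difference, counted with cell-free RNA included, was smaller. Iglc1 was 305 CPM in B cells labelled WT and 588 in those labelled Ring1AKO (log2 ratio 0.95, 0.87 to 1.02), while Iglc2 was 825 and 755 CPM (-0.13) and Iglc3 458 and 357 CPM (-0.36). None of these 3 members, the only ones with at least 100 UMIs, passed 1 log2 unit. Among the 8760 genes measured so, 0.616% were higher and 2.92% lower by as much. The sum of the constant genes had a log2 ratio of 0.10 (0.06 to 0.13). Its direction was not stable, at -0.25 with the cells of both rules counted as B cells and -0.23 after the cell-free profile was subtracted. Cell-free RNA alone would have given B cells labelled Ring1AKO 510 CPM of Iglc1, close to the 588 observed, but 27.8 of Iglc2 and 8.05 of Iglc3. Observed levels were 1.15, 27.2 and 44.4 times these values, and 2.51, 11.9 and 14.3 times in B cells labelled WT. For Iglc1 in B cells labelled WT the cell-free value was 121 CPM, of the 305 observed. The Iglc1 ratio thus does not show which B cells held more Iglc1 of their own.

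Lambda B cells were few. With the same call 30 of 1067 (2.81%, 1.90% to 3.99%) were lambda in the WT-labelled library and 51 of 3097 (1.65%, 1.23% to 2.16%) in the Ring1AKO-labelled library, a difference of -1.16 percentage points (-2.40 to -0.19). They held a median of 25.5 and 23 lambda UMIs, and a B cell's lambda share ran without a gap, with 5th and 95th percentiles of 4.02% and 43.4% in WT and 4.17% and 38.9% in Ring1AKO. A call that asked for 90% lambda left 0 of 235 and 1 of 766 cells. All called B cells held Igkc UMIs and their lambda counts were small, so this call cannot show how one-sided they were. Lambda B cells held a median of 18 and 14 Igkc UMIs, and T, NK and ILC-like cells 13 and 16. After the cell-free profile was subtracted the counts were 113 of 971 and 187 of 2816. The most counted gene of lambda B cells was Iglc1 in 11, Iglc2 in 18 and Iglc3 in 1 of 30 cells labelled WT, and in 23, 26 and 2 of 51 labelled Ring1AKO. The share of Iglc1 was 8.43 percentage points higher in the Ring1AKO-labelled library (-13.5 to 28.5), an interval that held 0.

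Among B cells led by Ighm, the IgM gene, 21 of 450 (4.67%) labelled WT and 27 of 941 (2.87%) labelled Ring1AKO were lambda, and among those with most counts from Igha 8 of 578 (1.38%) and 23 of 2121 (1.08%). Igha was also the main heavy-chain constant transcript of the cell-free RNA (69469 and 58438 CPM), and its part in these B cell isotypes was not tested. Of cells that met both rules 4 of 77 and 2 of 87 were lambda.

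The constant genes were also counted outside the B lineage. Barcodes with fewer than 100 UMIs, 2523340 and 2329826 of them, held 5597 CPM of Iglc1 in the WT-labelled library and 16873 in the Ring1AKO-labelled library (log2 ratio 1.59). Iglc2 was 3211 and 920 CPM there and Iglc3 1475 and 267 CPM, while Igkc was 101772 and 96213 CPM. T, NK and ILC-like cells held 131 and 434 CPM of Iglc1, 63.2 and 33.1 of Iglc2 and 43.7 and 5.96 of Iglc3. Iglc1 made up 54.4% and 93.4% of cell-free lambda UMIs and 55.0% and 91.7% of those in T, NK and ILC-like cells. The classes did not all keep the cell-free ratios. The log2 ratio of Iglc2 was -1.80 in cell-free barcodes, -0.93 in T, NK and ILC-like, -0.30 in monocyte/macrophage-like and 0.06 in dendritic-like cells. The dendritic-like value rested on 23 and 23 Iglc2 UMIs, with an interval of -0.84 to 0.96. None of the 1624 and 1790 T, NK and ILC-like cells that could be called, and none of the 1150 and 607 monocyte/macrophage-like cells, was lambda. Lambda made up 9.18% and 15.8% of cell-free light-chain constant UMIs. A majority call on such RNA gives kappa, so these counts show nothing about the cells.

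**Figure D5:**
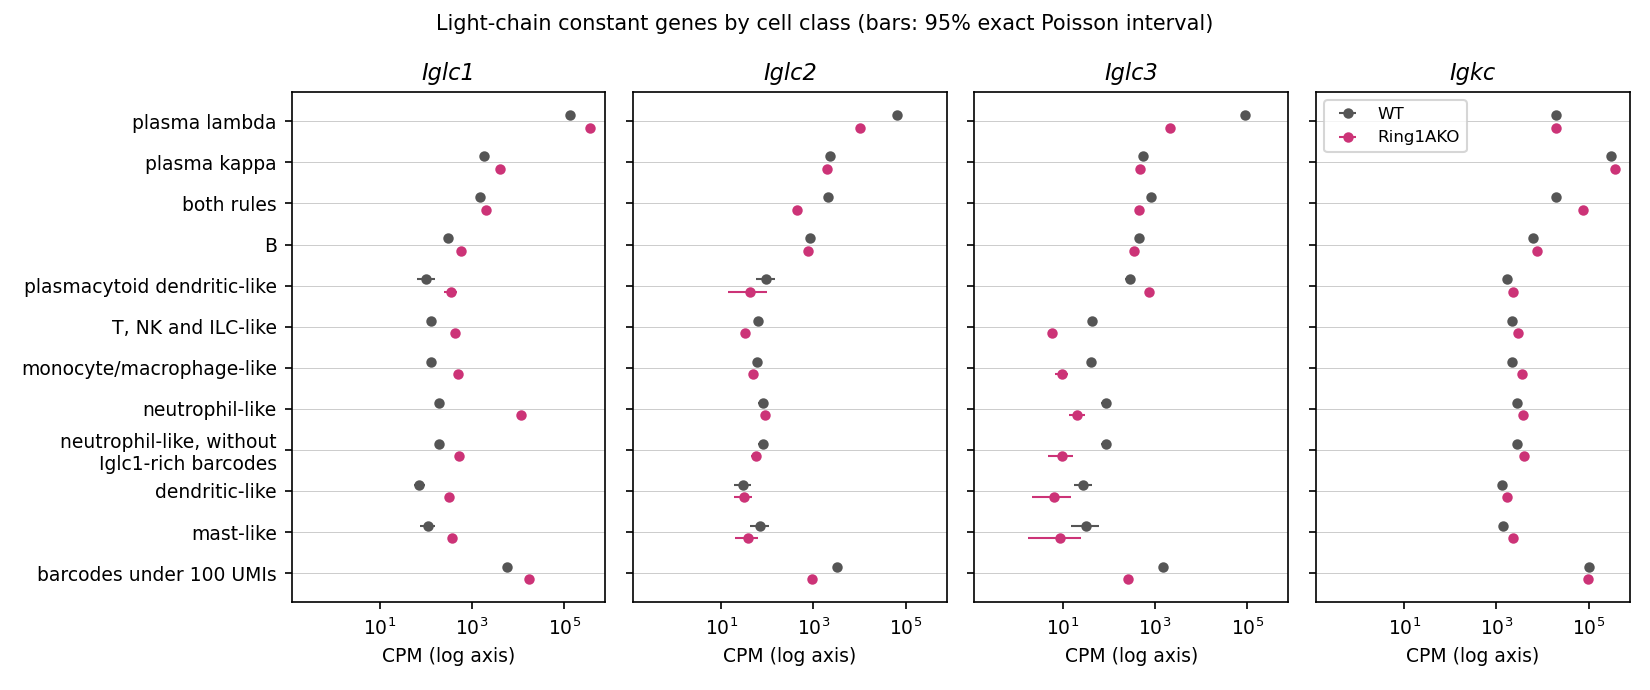
Level of Iglc1, Iglc2, Iglc3 and Igkc (x axis, CPM on a log axis) in each class of cells and in barcodes under 100 UMIs, for WT (grey) and Ring1AKO (pink), with exact 95% Poisson intervals as bars. Iglc1 is higher in Ring1AKO in every class plotted, and Iglc3 is lower in every class plotted but plasmacytoid dendritic-like cells.

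Iglc1 was high in a further place in the Ring1AKO-labelled library. Its neutrophil-like cells had 11708 CPM of Iglc1, against 192 CPM in those labelled WT. Of the 273 cells, 8 barcodes held 95.9% of the Iglc1 UMIs of the class. They were singled out after their values were seen. These barcodes held 958 to 2782 Iglc1 UMIs with 28 to 62 Igkc, 127 to 309 Jchain and 397 to 1068 Igha UMIs, beside 176 to 249 UMIs of the neutrophil genes S100a8 and S100a9 and 2 to 9 UMIs of the secretory genes. Their ratio of Iglc1 to Igha was 2.25 to 2.60, and the middle 50% of Iglc1 plasma cells of the same library ran from 2.001 to 2.557. Without them the class had 525 CPM of Iglc1, and no other of its cells had more than 10 Iglc1 UMIs. Whether these barcodes held plasma cell RNA with another cell was not tested. All were under the limit of 10 secretory UMIs that the plasma cell rule sets. The 22 cells labelled Ring1AKO with 8 or 9 such UMIs had 18386 CPM of lambda constant UMIs and the 16 with 10 or 11 had 632, while the values labelled WT were 237 and 286 CPM. Of the 22 cells 4 were called lambda and of the 16 cells 0. Outside the neutrophil-like class, cells labelled Ring1AKO below the limit held at most 71 lambda constant UMIs each, while the 22 together held 6310. The 22 thus included some of the 8 barcodes, but whether the 4 lambda cells were among the 8 was not checked.

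Iglc3 was also counted in plasmacytoid dendritic-like cells, a class looked at after its values were seen. It was 292 CPM in 23 cells labelled WT and 763 CPM in 15 labelled Ring1AKO, from 60 and 89 UMIs. A UMI of Iglc3 was found in 12 of 23 cells (52.2%, 30.6% to 73.2%) and 9 of 15 (60.0%, 32.3% to 83.7%), against 22.9% and 3.80% of T, NK and ILC-like cells. Median depths were 9178 and 8877 UMIs in the former and 5477 and 5417 in the latter. The levels were 9.14 and 94.7 times that given by the cell-free share, and 3 cells held 68.3% and 68.5% of the UMIs. Iglc1 in the same cells, 102 and 343 CPM, was 0.84 and 0.67 times the cell-free level.

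Across 20 points, the 10 classes of both libraries, the gene whose level was most like the summed lambda constant level was Jchain (Pearson r of log2 levels 0.89). Igha (0.88) and Igkc (0.86) were next among immunoglobulin genes, with Ighv1-12 (0.84), Ighv1-53 (0.83) and Igkv19-93 (0.82). Among others Mzb1, a chaperone of antibody secreting cells, had 0.83, Sgpp2 0.83 and Eef1akmt3 0.83, and a, the agouti gene, 0.85. The variable members were a little lower, at 0.80 for Iglv1, 0.82 for Iglv2 and 0.80 for Iglv3. Without both neutrophil-like points Igkc led with 0.94, then Jchain and Mzb1 with 0.92 each, so the order rested on them. The points share libraries and cell-free RNA.

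Lambda plasma cells were also compared with the kappa plasma cells of their own library. This contrast chose cells by the constant genes, so those genes differ by construction. Iglc1 was higher in lambda cells by 6.23 and 6.50 log2 units, Iglc2 by 4.78 and 2.42 and Iglc3 by 7.35 and 2.14. Over both libraries, 20 of 9443 genes (0.212%) were higher in lambda cells by at least 1 log2 unit in each and 131 (1.39%) lower. These 9443 genes had at least 100 UMIs over both libraries together, and a gene could have fewer in 1 of them. In each library alone the shares higher were 1.07% and 1.12% and those lower 6.69% and 2.23%. Of the members, 5 of 6 were higher in WT-labelled and 3 of the 5 measured in Ring1AKO-labelled lambda cells, and 0 were lower in either. Among the heavy variable genes Ighv2-9-1 had 80 UMIs in lambda and 4 in kappa cells labelled WT, and 33 and 0 in those labelled Ring1AKO. Ighv2-9 had 107 and 117 UMIs and 1 and 2 UMIs, too few in the Ring1AKO-labelled library to give a fold. The lowest were Ighg2c, an IgG constant gene, at -7.30 and -6.34, the kappa variable genes Igkv6-23, Igkv12-44 and Igkv12-41, and Ighv6-6. Only 8 and 11 plasma cells were led by Ighg2c, and 1 cell held 17.7% and 19.7% of its kappa cell UMIs. For the other immunoglobulin genes named lowest, 1 cell held 1.88% to 54.3% and 7.42% to 53.1%. Of genes outside the immunoglobulin loci, 13 were higher and 70 lower. Those highest in lambda cells, Asprv1, Ttc8, Btbd8, Dusp18 and Trp73, rested on 4 to 51 UMIs in lambda cells. Those lowest, Gpx2, Saa3, Il12b, Krt19 and Krt8, had 18.9% to 63.3% of their kappa cell UMIs in 1 cell in the WT-labelled library and 75.3% to 98.8% in the Ring1AKO-labelled library.

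The genes that fold and assemble antibody chains differed between lambda and kappa cells in the WT-labelled library by more than in the Ring1AKO-labelled library, which was not tested. Of 23 such genes measured, 7 were at least 1 log2 unit higher in WT lambda cells, where 1.07% of the 8044 genes measured were. The median of the 23 was 0.73 against -0.01 for all genes. Derl3 (1.19) and Mzb1 (1.12), of the 7, are genes of the plasma cell rule, as are Txndc5 (0.13) and Xbp1 (0.09). Of plasma cells with less than 1% heavy-chain constant UMIs, 0 of 38 labelled WT and 1 of 20 labelled Ring1AKO were lambda. Their part in this contrast was not tested. Creld2 was the highest at 1.68 (381 CPM in kappa and 1219 in lambda cells), Hspa5, the main chaperone of the endoplasmic reticulum, was at 1.48 and Hsp90b1, another, at 1.27, and Jchain the lowest at 0.05. In the Ring1AKO-labelled library 0 of the 23 passed, where 1.12% of the 7041 genes measured did, and their median was 0.10, with Hspa5 the highest at 0.63 and P4hb the lowest at -0.15.

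Between the libraries, the folding genes in plasma cells had a median log2 ratio of -0.35 against -0.40 for all genes. Of the 23, 0 were higher by 1 unit and Hsp90b1 alone was lower (-1.07), beside 0.72% of all genes higher and 10.4% lower. Herpud1 was the highest at 0.40. Of 16 factors that bind light-chain enhancers, all measured, 0 passed in either direction in plasma cells, beside the same shares of all genes. These factors ran from 0.94 for Ebf1 to -0.73 for Tcf4 with a median of -0.48. In B cells 15 were measured and 0 passed, beside 0.616% of all genes higher and 2.92% lower. In lambda against kappa cells 0 were higher and 2 lower in the WT-labelled library, with Spib at -2.41 from 124 UMIs. Of all genes 1.07% were higher and 6.69% lower there. In the Ring1AKO-labelled library 0 passed, beside 1.12% of all genes higher and 2.23% lower. Of 13 genes of the pre-B receptor and of rearrangement, 7 had enough UMIs in plasma cells. Of the 7, 0 were higher and 2 lower, beside 0.72% of all genes higher and 10.4% lower. They ran from Vpreb3 at 0.34 to Dclre1c, the Artemis nuclease, at -1.24, with a median of -0.60. In B cells 0 of 6 passed, beside 0.616% of all genes higher and 2.92% lower. With so few genes a list, counts of 0 were near these shares and are not a result about the genes. Rag1 and Rag2, the recombinase genes, and Igll1, a part of the surrogate light chain, had 0 UMIs in plasma cells of both libraries. Of the same list, Vpreb1 had 4 and 8 UMIs and Dntt 26 and 32.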

How the data were processed

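Sorted colonic LP cells of DSS-treated mice were measured in 1 library labelled WT and 1 labelled Ring1AKO. The deposited matrices hold raw UMI counts per gene and barcode, which the authors made with Cell Ranger, before any selection of cells. Per the labels the tools were Cell Ranger 6.0.2 and Seurat with mm39, the file header names Cell Ranger 4, and the study's methods an earlier version and mm10. Of the 32228 gene IDs, 99.6% were found in GENCODE vM21 (GRCm38), which gave positions and sequences. Depth is in the report.

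Cells were called from UMI totals (the 99th percentile of 3000 expected cells divided by 10), and barcodes of at least 500 UMIs were compared with those ranked 45000 to 90000 (10000 simulations, false discovery rate 0.01). Cells with at least 200 genes, under 5% mitochondrial and under 40% ribosomal UMIs were kept. Other classes needed 5 UMIs of a marker list and 2 times those of the next list. Doublets were not removed.

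Counts were summed per class and divided by its UMIs (CPM). Log2 ratios give Ring1AKO over WT, after 1 UMI was added to both sums, with exact conditional intervals. Shares have exact Clopper-Pearson intervals, and their differences Newcombe intervals. The share of cell-free RNA, 2.17% and 3.02% of UMIs, came from Igkc in T, NK and ILC-like cells. It was used as the same fraction in the other classes, whatever their depth. No test between single libraries was made. Genes with fewer than 100 UMIs over both sides were not read in comparisons across genes, where a log2 ratio of at least 1 in either direction was counted. For lambda against kappa cells of both libraries, the 100 UMIs were over both libraries together. The genes named are the members, Igkc and heavy-chain constant genes, the extremes of 3 lists, the 5 most like the lambda sum and the 5 highest and lowest in lambda cells of both libraries. The members and lists were chosen with earlier results of these data known. Alternatives changed the calling, filters, class rules, lambda call, depth, weights and cell-free RNA. Ratios and intervals were tested on simulated sums, and the light-chain call on simulated cells with clearly separate lambda shares. That does not cover the B cell calls, where the shares ran without a gap. Cell calling and the class rules were not tested so. Python 3.11.15, numpy 2.4.6, scipy 1.17.1, pandas 2.3.3, Biopython 1.88 and matplotlib 3.10.9 were used.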

Additional observations from a re-analysis of the deposited data

How the results depend on the processing

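Of 63 alternative values, 38 stayed within the counting interval, 23 moved outside it and 2 reversed, which means a change of sign where the intervals of both values left out 0. Other values changed sign with an interval that held 0. The plasma cell log2 ratios of Iglc1 and of the lambda sum kept their direction in all 11 alternatives each. They were 1.47 and 0.48 with 20 secretory UMIs, 1.46 and 0.47 with at least 1% heavy-chain constant UMIs, 1.46 and 0.47 with cells of both rules counted in, 1.39 and 0.38 without the 5% deepest cells, 1.33 and 0.33 in cells thinned to 5000 UMIs, 1.35 and 0.37 as means of per-cell CPM, and 1.63 and 0.43 without the 10 cells richest in lambda. Without cells with at least 1% of UMIs from markers of another class, an alternative chosen after seeing the data, they were 1.46 and 0.47. The difference in the share of lambda plasma cells ran from -0.59 to 0.24 percentage points over 11 alternatives. That in the share of Iglc1 among lambda plasma cells ran from 47.6 to 61.8 points over 12, all added after seeing the data. The lambda sum in B cells reversed to -0.25 with cells of both rules counted in and to -0.23 with the cell-free profile subtracted, and was -0.017 with calling on UMI totals alone and 0.062 in thinned cells. The cause was not tested. The difference in lambda B cells was -3.35 points with UMI totals alone, -4.997 with the cell-free profile subtracted, -4.02 with at least 50 light-chain UMIs and 0.13 with the 90% call. The cell-free lambda ratio was 0.79 in barcodes of 10 to 99 UMIs, against 0.81 in all under 100. No paired analysis was possible because only 1 library was made per group. Called B cells had a median of 35 and 43 light-chain UMIs. With the cell-free profile subtracted, 113 of 971 and 187 of 2816 were called lambda, against 30 of 1067 and 51 of 3097 without. The parts of depth and of cell-free Igkc in these numbers were not tested.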

Other observations

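Plasma cells with at least 1% of their UMIs from markers of another class numbered 8 in the WT-labelled library, of which 0 were lambda, and 13 in the Ring1AKO-labelled library, of which 5 were lambda and all 5 Iglc1 cells. In cells that met both rules Iglv1 was 41.9 CPM in the WT-labelled library and 898 CPM in the Ring1AKO-labelled library, where Igkc was 19864 and 76025 CPM. The Iglv1 level rested on 67 UMIs in 16 of 77 cells labelled WT. In the Ring1AKO-labelled library it rested on 1904 UMIs in 25 of 87 cells, and 1 cell held 715 of them. The cell with the most Iglv1 in the series was a kappa plasma cell labelled WT with 847 Iglv1, 1784 lambda constant and 35328 Igkc UMIs among 83788.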
